A study of Homo sapiens with 12 samples.

Results

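Keratins, claudins and the genes of desmosomes and tight junctions were examined in MDA-MB-231 cells treated with TGFβ, alisertib or both. The set was taken from the deposited gene table by name. It holds the numbered keratins (KRT), claudins (CLDN), desmogleins and desmocollins (DSG, DSC), plakophilins (PKP) and tight junction proteins (TJP), and the single genes DSP, JUP, OCLN, EPCAM and F11R. These names matched 98 of 57773 genes, and the 45 with at least 10 counts in at least 3 of the 12 libraries are described. They comprise 10 of 28 type I keratins, 9 of 26 type II keratins, 1 of 2 entries named KRT222, 11 of 23 claudins, the 5 other tight junction genes, 2 of 7 desmosomal cadherins, the 6 desmosomal plaque genes and EPCAM. Of the 53 that were not described, 24 had no count in any library, 7 reached 10 counts in 1 or 2 libraries, and the others never exceeded 9. CLDN6 lay just inside the rule, with 10 or more counts in 3 libraries and at most 15, and KRT6A and KRT75 lay just outside it, with 10 or more in 2 libraries.

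Keratins are the intermediate filament proteins of epithelial cells. A type I keratin always pairs with a type II keratin, KRT8 with KRT18 in simple epithelia and KRT5 with KRT14 in basal cells. Keratin filaments anchor at desmosomes, where the cadherins DSG and DSC join neighbouring cells, and plakoglobin (JUP), plakophilins and desmoplakin (DSP) link these cadherins to the filaments. Claudins and occludin (OCLN) form the strands of the tight junction, and scaffold proteins such as TJP1 tie them to actin. TGFβ, a cytokine whose receptors activate SMAD proteins, can drive epithelial cells into a mesenchymal state in which junctions are taken down. Alisertib inhibits the mitotic kinase Aurora A.

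MDA-MB-231 is a human cell line from a triple-negative breast carcinoma, known for its mesenchymal shape. The 4 groups of 3 libraries were TGFβ with alisertib (combined, libraries 10 to 12), TGFβ (4 to 6), alisertib (7 to 9) and no treatment (1 to 3), with 48 h of treatment. The labels give no doses and do not state whether the libraries within a group are separate cultures. The p-values therefore measure the spread between these libraries, which may be technical. The total count per library was 105921831 to 120619368 in combined cells, 110282980 to 118220032 in TGFβ cells, 97048328 to 105563951 in alisertib cells and 93701658 to 100328721 in untreated cells. Library 10, 6, 9 and 1 each stood apart from the other two of its group, and their deviations across the tested genes correlated with one another at 0.398 to 0.648. The cell line's marker VIM lay at 1220 to 2130 CPM (counts scaled to library size) in every library. The other mesenchymal markers CD44, AXL and FN1 were also abundant in every library, but SPARC reached at most 126 counts. The hormone receptor genes ESR1 and PGR reached at most 4 and 3 counts. Among the other markers of luminal breast cells, FOXA1, TFF1 and SPDEF reached at most 6, 22 and 30 counts, but GATA3 reached 828. Of 5 leukocyte markers, the summed level was 0.867 to 0.9615 CPM in combined cells, 1.015 to 1.163 in TGFβ cells, 1.498 to 1.926 in alisertib cells and 1.458 to 3.159 in untreated cells. In bulk RNA, fewer cells of a type and less RNA per cell cannot be told apart.

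TGFβ changed most of the described genes, raising some and lowering others. Against untreated cells, 23 of the 45 were called higher and 13 lower by edgeR's quasi-likelihood test at an adjusted p under 0.05, beside 38.6% of all 20571 tested genes called in either direction, 18.5% higher and 20.1% lower. The libraries of the 2 groups did not overlap for 36 of the 45, beside 46.4% of all tested genes. Of the described genes, 7 met the count rule only through libraries with TGFβ, namely KRT14, KRT16, KRT33B, KRT79, KRT83, KRT85 and PKP1. Another 3, CLDN3, KRT84 and TJP3, met it only through libraries without TGFβ. The rule therefore favoured a difference in these 10. Among the 30 members with a mean of at least 1 CPM over all libraries, 15 were called higher, 10 lower and 5 neither, beside 46.7% called of the 14243 tested genes at that level. The median absolute log2 fold change was 0.63 for these 30 and 0.22 for all genes at that level. The 9 of the 45 that were not called were KRT8, KRT10, KRT18, KRT39, KRT85, KRT222, CLDN6, CLDN15 and DSC2.

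KRT7 and KRT81 rose most among the abundant type II keratins, while KRT80 fell. KRT7, a keratin of glandular and ductal epithelium (chromosome 12, 52626304 to 52645970 in hg19), had 413.2, 542.5 and 528.2 CPM in combined libraries 10 to 12, 559.9, 576.5 and 467.6 with TGFβ in libraries 4 to 6, 257.5, 243.6 and 213.2 with alisertib in 7 to 9, and 189.1, 262.3 and 266.2 in untreated libraries 1 to 3. Every library with TGFβ lay above every library without it. The log2 fold change of KRT7 with TGFβ over untreated was 1.16 ± 0.13 (SE, adjusted p = 6.79e-06 by edgeR). KRT81, a hair keratin that is also made in breast cancer cells, had 23.8, 24.0 and 23.3 CPM in combined libraries, 31.3, 35.1 and 27.1 with TGFβ, 14.4, 7.61 and 11.8 with alisertib, and 8.36, 10.9 and 10.6 without treatment. Its libraries with TGFβ were again all above those without, and its change with TGFβ was 1.65 ± 0.18 on the log2 scale (adjusted p = 3.59e-06 by edgeR). KRT86, a near copy of KRT81 whose annotated span covers KRT81 and reaches into KRT7, had 2.41, 3.03 and 3.61 CPM in combined libraries, 3.89, 3.43 and 2.51 with TGFβ, 1.46, 1.03 and 1.36 with alisertib, and 1.22, 1.79 and 1.45 without treatment. It rose by a log2 fold change of 1.14 ± 0.20 (adjusted p = 0.000423), but reads of KRT81, KRT83 and KRT86 may have been shared between them. KRT80, a keratin of differentiating epithelia, averaged 135.9 ± 7.96 CPM in combined libraries, 144.6 ± 8.70 with TGFβ, 208.1 ± 12.6 with alisertib and 203.1 ± 19.2 without treatment (SD, n = 3 each), and fell by 0.49 ± 0.07 on the log2 scale with TGFβ (adjusted p = 8.75e-05 by edgeR).

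The pair of simple epithelia, KRT8 and KRT18, was not called with TGFβ alone. KRT8 had 251.7, 305.6 and 290.1 CPM in combined libraries, 326.4, 332.1 and 278.0 with TGFβ, 297.2, 276.6 and 235.9 with alisertib, and 223.2, 310.5 and 301.4 without treatment. KRT18, its partner, had 262.2, 278.0 and 277.9 CPM in combined libraries, 292.2, 309.0 and 269.7 with TGFβ, 334.7, 317.4 and 303.6 with alisertib, and 289.7, 338.5 and 333.0 without treatment. The groups overlapped for both genes in the comparison of TGFβ with untreated cells, where the log2 fold changes were 0.17 ± 0.12 for KRT8 and -0.14 ± 0.07 for KRT18 (adjusted p = 0.309 and 0.106 by edgeR). With an indicator term for libraries 1, 6, 9 and 10, both passed, at nearly the same fold changes and in opposite directions (adjusted p = 0.000898 for KRT8 and 0.00137 for KRT18). KRT18 fell in combined libraries against alisertib by 0.22 ± 0.07 on the log2 scale (adjusted p = 0.015), a call lost without library 7 or without library 10, with adjusted p up to 0.0608. Entries named as KRT8 pseudogenes held 6.13% to 7.6% as many counts as KRT8 in a library, so part of the reads of KRT8 may lie there. The spans of KRT8 and KRT18 also overlap by 1084 bases. KRT18 overlaps 88 bases of AC107016.2, which had about 5095 counts per library. Reads in these stretches may be shared, because the library kit does not mark the strand.

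Among type I keratins, KRT19, KRT17 and KRT34 rose and none fell with TGFβ. KRT19, the smallest keratin, found in ductal and simple epithelia (chromosome 17, 39679869 to 39684560 in hg19), had 131.1, 184.2 and 184.3 CPM in combined libraries, 179.1, 194.5 and 140.4 with TGFβ, 115.5, 106.1 and 91.2 with alisertib, and 77.9, 119.2 and 121.9 without treatment. The TGFβ libraries lay above the untreated ones, and the log2 fold change was 0.69 ± 0.17 (adjusted p = 0.00554 by edgeR), with adjusted p = 0.069 at the most, without a filter on low counts or without library 1. KRT34, a hair keratin, had 1.89, 1.99 and 2.15 CPM in combined libraries, 1.48, 1.90 and 1.22 with TGFβ, 0.906, 1.06 and 0.439 with alisertib, and 0.275, 0.368 and 0.479 without treatment. It rose by a log2 fold change of 2.03 ± 0.29 with TGFβ (adjusted p = 5.98e-05). KRT17, a keratin of basal and wounded epithelium, had 0.954, 1.47 and 1.13 CPM in combined libraries, 0.591, 1.09 and 0.499 with TGFβ, 0.366, 0.362 and 0.399 with alisertib, and 0.106, 0.145 and 0.0782 without treatment. It rose by a log2 fold change of 2.71 ± 0.35 with TGFβ (adjusted p = 2.36e-05). KRT17 lies wholly within the annotated span of JUP and resembles KRT14 and KRT16, so some of its reads are uncertain. KRT15, a keratin of basal epithelial cells, rose by 0.55 ± 0.13 on the log2 scale with TGFβ (adjusted p = 0.0041), while KRT10 and KRT39 did not pass.

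**Figure D1:**
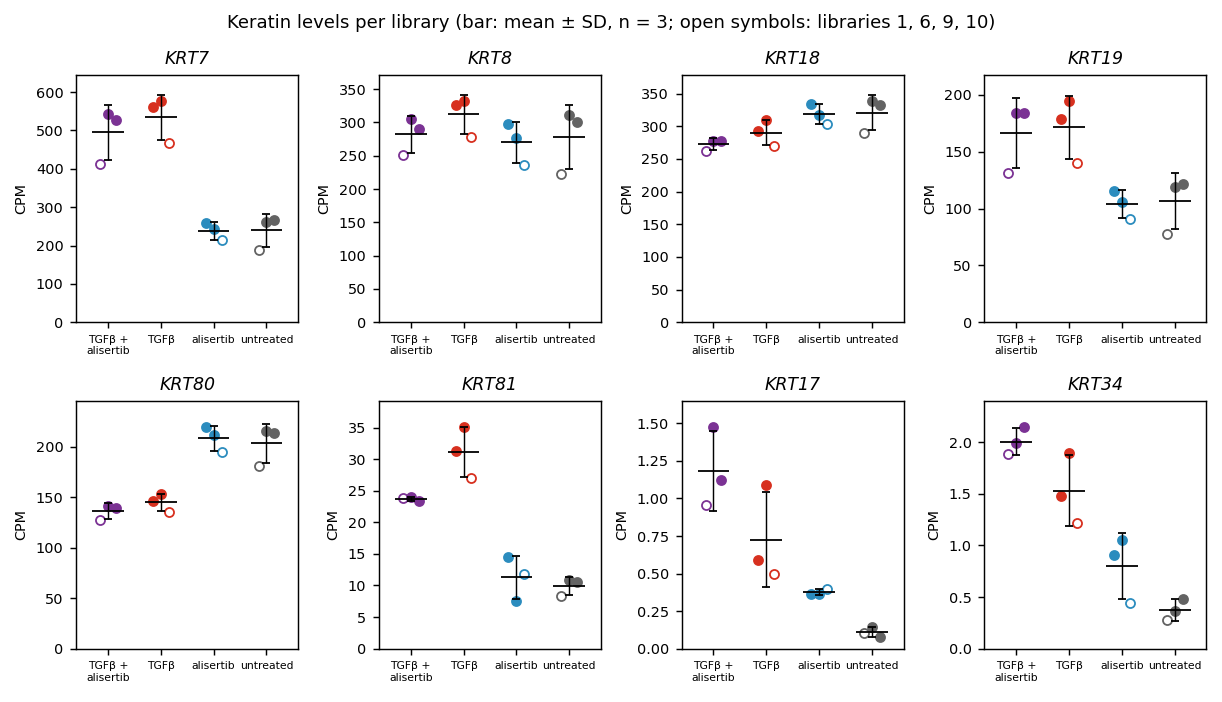
Levels of 8 keratins in every library in CPM, with the combined and TGFβ libraries on the left, alisertib and untreated libraries on the right, and bars for the mean ± SD of 3 libraries. All libraries with TGFβ lie above all libraries without it for KRT7, KRT19, KRT81, KRT17 and KRT34, and below for KRT80, while the groups overlap for KRT8.

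Several keratins of skin and hair were near 0 in untreated cells and low with TGFβ. KRT14, KRT79, KRT83, KRT16 and KRT33B met the count rule only through libraries with TGFβ, and KRT84 only through libraries without it. The rule therefore favoured the differences of these genes. KRT14, the basal type I keratin, had 37, 69 and 53 counts in combined libraries, 32, 33 and 20 with TGFβ, 2, 2 and 3 with alisertib, and 2, 0 and 0 without treatment. The ratio of TGFβ to untreated was 36.6, with an exact 95% interval of 9.81 to 307 that covers counting error only. KRT79, a type II keratin of hair follicle and sebaceous duct, had 139 counts in all over the 3 TGFβ libraries and 2 over the untreated ones, a ratio of 59.8 (16.2 to 498.5). KRT5, the usual partner of KRT14, never exceeded 6 counts in a library. KRT83, KRT16 and KRT33B, 2 hair keratins and a keratin of wounded skin, were also called higher, with log2 fold changes of 2.94, 2.17 and 2.19 and levels under 1 CPM. The call of KRT16 was lost without library 2 or library 4 (adjusted p up to 0.0778), and that of KRT33B without library 1, 2 or 5 (up to 0.136). KRT84, a hair keratin, had no count in the TGFβ libraries and 0, 16 and 16 counts in untreated libraries 1 to 3, which puts it at least 12.4-fold lower against a floor of 3 counts over the group. In 8 of 17 alternative settings KRT84 was not called, without a filter on low counts and without each of libraries 2 to 7 and 10 in turn.

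The keratin transcripts also changed in their proportions. Per length, the 19 keratins summed to 392.2 ± 41.0 RPKM (CPM per kilobase of gene length) in combined libraries, 420.4 ± 42.3 with TGFβ, 321.8 ± 25.1 with alisertib and 321.8 ± 43.5 without treatment (SD, n = 3 each). KRT7 made up 30.7% ± 1.28 of that sum in combined libraries, 31.1% ± 0.454 with TGFβ, 18.1% ± 0.395 with alisertib and 18.1% ± 0.952 without treatment. KRT18 took 21.7% ± 1.64 in combined libraries, 21.5% ± 0.837 with TGFβ, 30.8% ± 0.97 with alisertib and 31.1% ± 1.77 without treatment. Thus KRT7 had the highest mean level per length of the keratins with TGFβ and KRT18 without it, and the levels of these genes did not overlap in either state. KRT80 made up 7.99% ± 0.392 of the sum in combined libraries, 7.93% ± 0.36 with TGFβ, 14.9% ± 0.285 with alisertib and 14.6% ± 0.649 without treatment. KRT8 held 14.4% ± 0.277 in combined libraries, 14.8% ± 0.218 with TGFβ, 16.7% ± 0.682 with alisertib and 17.2% ± 0.716 without treatment. Type II keratins summed to 244.3 ± 24.5 RPKM with TGFβ and 166.7 ± 25.4 without treatment, and type I keratins to 176.1 ± 18 with TGFβ and 155.1 ± 18.1 without treatment. The sums of type I keratins overlapped between these groups and those of type II keratins did not. These sums are descriptions and were not tested.

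**Figure D2:**
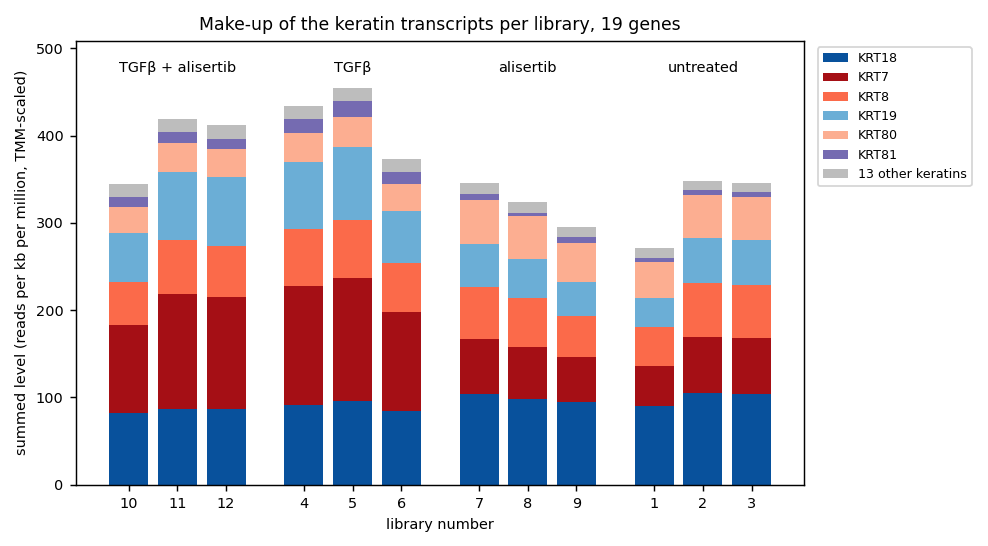
Summed level per length of the 19 described keratins in each library, divided by gene, with libraries 10 to 12 and 4 to 6 on the left and 7 to 9 and 1 to 3 on the right. The KRT7 segment is taller than the KRT18 segment in every library with TGFβ and shorter in every library without it.

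Claudins moved in both directions. With TGFβ 4 rose and 5 fell, and the 3 with the highest level per length in untreated cells, CLDN12, CLDN4 and CLDN7, were among those that rose. CLDN1, a sealing claudin of epithelial barriers (chromosome 3, 190023490 to 190040264 in hg19), had 2.65, 2.28 and 2.73 CPM in combined libraries, 1.88, 2.39 and 2.353 with TGFβ, 9.30, 9.60 and 8.49 with alisertib, and 10.3, 10.3 and 10.8 without treatment. All libraries with TGFβ were below all libraries without it, and the log2 fold change with TGFβ over untreated was -2.24 ± 0.11 (adjusted p = 5.24e-10 by edgeR). CLDN2, which forms channels for cations and water, had 6.03, 5.04 and 5.24 CPM in combined libraries, 5.20, 6.28 and 6.14 with TGFβ, 12.2, 11.6 and 12.1 with alisertib, and 16.3, 19.1 and 18.02 without treatment. Here the alisertib libraries lay between the others, and TGFβ lowered CLDN2 by a log2 fold change of -1.60 ± 0.10 (adjusted p = 6.31e-09). MORC4, with about 23090 counts per library beside 1070 for CLDN2, overlaps the span of CLDN2 over 30698 bases. Reads of CLDN2 may therefore be shared with MORC4. CLDN11, the claudin of myelin and of the testis barrier, had 0.809, 0.534 and 0.807 CPM in combined libraries, 0.694, 0.937 and 0.586 with TGFβ, 3.52, 2.80 and 2.65 with alisertib, and 2.98, 4.08 and 3.99 without treatment. It fell by 2.32 ± 0.21 on the log2 scale (adjusted p = 4.34e-07). CLDN23 averaged 1.86 ± 0.335 CPM in combined libraries, 1.64 ± 0.39 with TGFβ, 2.99 ± 0.0953 with alisertib and 3.32 ± 0.439 without treatment. Its log2 fold change was -1.02 ± 0.17 for TGFβ over untreated (adjusted p = 0.000279 by edgeR). AC087269.1, with about 253.9 counts per library beside 256.5 for CLDN23, overlaps 1951 of the 2169 bases of CLDN23. Reads of CLDN23 may therefore be shared with AC087269.1. CLDN3, at 0.0487 ± 0.00991 CPM with TGFβ and 0.20 ± 0.138 without treatment, was also called lower, but not without library 2 or without library 4, with adjusted p up to 0.121.

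CLDN12, CLDN4, CLDN7 and CLDN9 rose. CLDN4, a claudin that limits paracellular sodium (chromosome 7, 73213872 to 73247014 in hg19), had 88.7, 122.2 and 117.4 CPM in combined libraries, 92.2, 100.5 and 78.9 with TGFβ, 61.0, 57.5 and 49.6 with alisertib, and 39.9, 59.2 and 59.3 without treatment. Every library with TGFβ exceeded every library without it, at a log2 fold change of 0.78 ± 0.15 with TGFβ (adjusted p = 0.000867 by edgeR). CLDN7, a claudin of the basolateral membrane that binds EPCAM, had 28.3, 33.4 and 35.1 CPM in combined libraries, 27.98, 29.7 and 23.6 with TGFβ, 20.4, 23.5 and 18.4 with alisertib, and 14.6, 23.4 and 22.3 without treatment. Its lowest TGFβ library was just above its highest untreated one, the log2 fold change was 0.43 ± 0.15 (adjusted p = 0.0383), and the call was lost in 8 of 18 alternative settings, among them without library 1, 3, 4, 5 or 7, with adjusted p up to 0.2. CLDN12 averaged 135.0 ± 5.22 CPM in combined libraries, 124.2 ± 4.21 with TGFβ, 93.5 ± 2.81 with alisertib and 83.4 ± 3.17 without treatment, and its change of 0.57 ± 0.05 with TGFβ passed (adjusted p = 2.5e-07). CLDN9, a claudin of the inner ear, had 0.636, 1.28 and 0.996 CPM in combined libraries, 0.966, 1.35 and 1.041 with TGFβ, 0.22, 0.21 and 0.25 with alisertib, and 0.127, 0.233 and 0.283 without treatment, a log2 fold change of 2.37 ± 0.30 with TGFβ. The 11 claudins summed per length to 62.2 ± 5.11 RPKM in combined libraries, 54.4 ± 3.22 with TGFβ, 43.9 ± 1.93 with alisertib and 43.8 ± 4.66 without treatment. Reads of CLDN12 may be shared with GTPBP10 and CDK14, and reads of CLDN7 with ELP5 and RP1-4G17.5, because the spans of these genes overlap and the library kit does not mark the strand.

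The promoters of 3 of these claudins are shown as examples of both directions, CLDN1 and CLDN2 lower and CLDN4 higher with TGFβ. Each is the RefSeq sequence from 250 bases before to 50 after the annotated start on GRCh38.p14. CLDN1 is at chr3:190322397-190322696 on the minus strand, CLDN2 at chrX:106899914-106900213 on the plus strand and CLDN4 at chr7:73830746-73831045 on the plus strand. Capitals mark 2 motifs on either strand. CAGAC is the core of the SMAD-binding CAGA box and reads GTCTG on the other strand. TGANTCA, with N for any base, is a loose form of the AP-1 site.
CLDN1: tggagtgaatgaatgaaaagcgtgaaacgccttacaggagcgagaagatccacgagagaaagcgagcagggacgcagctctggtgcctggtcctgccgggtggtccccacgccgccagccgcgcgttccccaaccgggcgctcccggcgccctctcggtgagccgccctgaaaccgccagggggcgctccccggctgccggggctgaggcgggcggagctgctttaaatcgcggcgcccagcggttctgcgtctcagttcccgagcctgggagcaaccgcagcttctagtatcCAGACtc
CLDN2: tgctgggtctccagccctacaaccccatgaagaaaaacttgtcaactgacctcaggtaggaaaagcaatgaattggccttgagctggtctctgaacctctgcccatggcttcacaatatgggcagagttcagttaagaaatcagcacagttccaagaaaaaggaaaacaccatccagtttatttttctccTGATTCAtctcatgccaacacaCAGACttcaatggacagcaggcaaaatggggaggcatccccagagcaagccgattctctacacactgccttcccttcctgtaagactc
CLDN4: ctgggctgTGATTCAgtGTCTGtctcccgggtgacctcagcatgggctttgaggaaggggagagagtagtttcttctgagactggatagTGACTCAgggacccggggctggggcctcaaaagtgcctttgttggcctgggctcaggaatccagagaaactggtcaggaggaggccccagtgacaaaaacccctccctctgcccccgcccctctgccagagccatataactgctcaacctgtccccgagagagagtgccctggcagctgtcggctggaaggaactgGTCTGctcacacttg
The CLDN4 window held 2 CAGA cores and 2 TGANTCA matches, the CLDN2 window 1 of each, and the CLDN1 window 1 CAGA core and no TGANTCA. The match in CLDN2 and the first in CLDN4 read TGATTCA, and the other in CLDN4 reads TGACTCA. Of all 35116 promoters of the table, 45.3% held CAGAC and 7.71% held TGANTCA. Promoters of 26 of the 45 genes matched by symbol. CAGAC was in 4 of 11 that rose with TGFβ, 5 of 8 that fell and 6 of 7 that were not called, and TGANTCA was in 1 of each. The E2-box CAGGTG, which SNAI and ZEB repressors bind, was in none of the windows printed here, in 5 of the 11 that rose, in 2 of the 8 that fell, in 3 of the 7 that were not called and in 20.6% of all promoters. A match is a description of these letters only.

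Of the other tight junction genes, TJP1 and F11R rose with TGFβ, and OCLN and TJP3 fell. TJP1, the scaffold ZO-1 (chromosome 15, 29991571 to 30261068 in hg19), had 187.7, 182.4 and 187.9 CPM in combined libraries, 185.0, 187.8 and 195.5 with TGFβ, 141.8, 142.4 and 150.3 with alisertib, and 152.6, 138.9 and 134.0 without treatment. Its groups with and without TGFβ were clearly separate, with a log2 fold change of 0.42 ± 0.05 (adjusted p = 1.31e-05 by edgeR). F11R, the adhesion molecule JAM-A, had 80.7, 78.7 and 80.2 CPM in combined libraries, 76.0, 81.6 and 86.5 with TGFβ, 46.6, 53.7 and 52.0 with alisertib, and 49.5, 50.8 and 46.9 without treatment. It rose by 0.73 ± 0.06 on the log2 scale (adjusted p = 2.85e-07), though a second annotated gene covers 23392 bases of the same span. OCLN, occludin, had 6.05, 5.08 and 6.04 CPM in combined libraries, 5.35, 4.41 and 4.91 with TGFβ, 7.63, 9.45 and 8.01 with alisertib, and 8.67, 7.63 and 8.94 without treatment. It fell by 0.78 ± 0.11 (adjusted p = 5.5e-05), with no overlap between libraries with and without TGFβ. TJP3, the scaffold ZO-3, was under 1 CPM in every library and fell by 2.82 ± 0.50 (adjusted p = 0.000435).

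Desmosome genes were higher in sum with TGFβ, while PKP2 and PKP4 fell. DSG2, the desmoglein of simple epithelia (chromosome 18, 29078006 to 29128971 in hg19), had 348.8, 339.1 and 338.5 CPM in combined libraries, 345.2, 345.3 and 361.4 with TGFβ, 228.8, 238.2 and 245.2 with alisertib, and 251.9, 231.0 and 225.7 without treatment. The libraries with TGFβ were all higher, and the log2 fold change was 0.57 ± 0.05 (adjusted p = 2.82e-07 by edgeR). DSC2, the desmocollin that usually accompanies DSG2, had 15, 6 and 11 counts in combined libraries, 6, 10 and 9 with TGFβ, 4, 11 and 16 with alisertib, and 14, 9 and 9 without treatment. The groups overlapped, DSC2 was not called in any of the 6 tests, and at 16 counts or fewer per library a change would be hard to detect. DSG1, DSG4 and DSC1 had no counts, and DSG3 and DSC3 never exceeded 5. DSG2 was therefore the one desmosomal cadherin measured at a substantial level.

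In the plaque, JUP rose and PKP2 fell by more than the other members above 1 CPM. JUP, plakoglobin (chromosome 17, 39775692 to 39943183 in hg19), had 56.4, 82.6 and 80.5 CPM in combined libraries, 78.3, 85.8 and 69.8 with TGFβ, 31.6, 31.03 and 25.5 with alisertib, and 23.4, 39.8 and 38.9 without treatment. All libraries with TGFβ exceeded all without it, and the log2 fold change was 1.20 ± 0.18 (adjusted p = 0.000104 by edgeR). The annotated span of JUP also holds EIF1, a gene with about 40130 counts per library, as well as KRT17. PKP2, the plakophilin of simple epithelia (chromosome 12, 32943679 to 33049774), had 10.1, 8.03 and 8.73 CPM in combined libraries, 8.71, 8.59 and 8.73 with TGFβ, 21.1, 21.6 and 21.4 with alisertib, and 26.1, 24.1 and 23.9 without treatment. The separation was complete, and PKP2 fell by 1.51 ± 0.08 on the log2 scale with TGFβ (adjusted p = 1.62e-09). PKP3, a plakophilin present in most desmosomes, had 5.92, 8.86 and 9.31 CPM in combined libraries, 9.52, 10.2 and 7.11 with TGFβ, 4.41, 4.195 and 3.37 with alisertib, and 3.02, 6.95 and 6.04 without treatment. Its log2 fold change of 0.74 ± 0.25 passed (adjusted p = 0.0305), but not in 6 of 18 alternative settings, among them without library 1, 3, 4 or 5 (adjusted p up to 0.178). DSP, desmoplakin, had 335.5, 336.4 and 333.8 CPM in combined libraries, 301.3, 297.8 and 312.4 with TGFβ, 269.9, 278.3 and 290.1 with alisertib, and 279.8, 265.5 and 257.5 without treatment, and rose slightly, by 0.18 ± 0.04 (adjusted p = 0.00444), a call lost with upper-quartile scaling (adjusted p = 0.0528). PKP4, a relative of the plakophilins also found at adherens junctions, fell by 0.43 ± 0.04 (adjusted p = 1.58e-06).

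PKP1, the plakophilin of stratified epithelia, was chosen after its values were seen, since its group means stayed under the 1 CPM set for naming. It had 96, 91 and 142 counts in combined libraries, 88, 70 and 80 with TGFβ, 4, 2 and 2 with alisertib, and 2, 0 and 0 without treatment. The ratio of TGFβ to untreated was 102.4, with an exact 95% interval of 28.03 to 850.1 for counting error only. PKP1 met the count rule only through libraries with TGFβ, so the rule favoured this ratio. Its RefSeq promoter, shown for that ratio, is at chr1:201283256-201283555 on the plus strand of GRCh38.p14, with CAGAC or its complement GTCTG in capitals at 2 places and no TGANTCA.
PKP1: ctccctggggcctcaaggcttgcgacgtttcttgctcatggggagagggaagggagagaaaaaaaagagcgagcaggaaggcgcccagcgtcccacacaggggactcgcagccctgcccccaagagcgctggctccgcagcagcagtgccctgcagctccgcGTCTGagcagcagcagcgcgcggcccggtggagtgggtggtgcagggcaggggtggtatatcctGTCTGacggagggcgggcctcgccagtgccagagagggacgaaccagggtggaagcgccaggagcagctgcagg
The 8 desmosome genes summed per length to 117.0 ± 1.47 RPKM in combined libraries, 116.9 ± 0.839 with TGFβ, 91.8 ± 1.5 with alisertib and 93.6 ± 2.23 without treatment, and the libraries with TGFβ lay above all others.

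EPCAM, an adhesion molecule used to mark carcinoma cells, fell slightly. It had 14.3, 12.7 and 14.03 CPM in combined libraries, 13.6, 14.2 and 15.3 with TGFβ, 16.2, 16.1 and 17.4 with alisertib, and 19.7, 16.7 and 17.4 without treatment. All libraries with TGFβ were below all others, and the log2 fold change was -0.32 ± 0.08 (adjusted p = 0.0053 by edgeR).

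**Figure D3:**
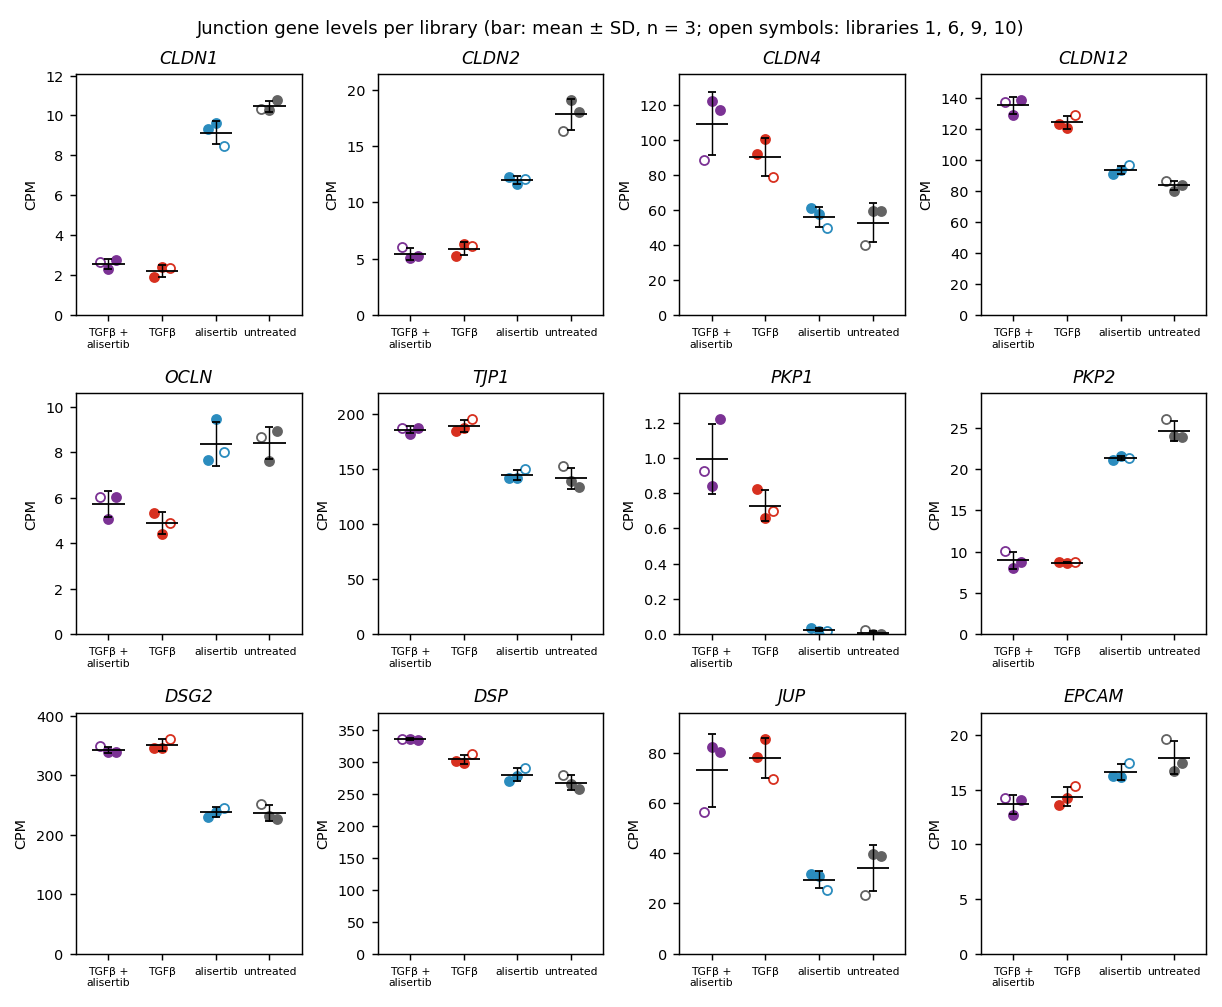
Levels of 12 junction genes in every library in CPM, with combined and TGFβ libraries on the left, alisertib and untreated libraries on the right, and bars for the mean ± SD of 3 libraries. CLDN1, CLDN2, OCLN, PKP2 and EPCAM are lower with TGFβ in every library, and CLDN4, CLDN12, TJP1, PKP1, DSG2, DSP and JUP are higher in every library.

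The TGFβ response was also measured in cells that had alisertib, in libraries that share none with the first comparison. Both comparisons came from 1 fit of all 12 libraries with a shared estimate of the spread, so their calls are not fully independent. Combined cells against alisertib alone gave 23 members called higher and 12 lower, beside 38.4% of all tested genes called, 19.4% higher and 19% lower. Libraries of these groups did not overlap for 34 of the 45, beside 50.3% of all genes, and 25 of the 30 members at 1 CPM or more were called, beside 47.3% of genes at that level. Calls in the same direction in both comparisons numbered 33, with 22 higher and 11 lower, and none was called in opposite directions. They were 91.7% of the 36 calls of TGFβ over untreated and 94.3% of the 35 calls of combined over alisertib. Over all tested genes, calls shared in the same direction were 82% and 82.4% of the calls in these comparisons. The count rule drew on the libraries of both comparisons and favoured this for members that met it only with TGFβ or only without. Among the 34 members that met it either way, 27 were called in each comparison and 26 in both in the same direction. For KRT16, called in both, the combined and alisertib libraries overlapped (adjusted p = 0.0467 by edgeR). That call was lost in 9 of 18 alternative settings, with adjusted p up to 0.173. The calls of EPCAM, PKP3, CLDN7 and KRT19 in combined over alisertib were each lost in 1 setting. KRT7 changed by a log2 fold of 1.05 ± 0.13 in combined over alisertib and 1.16 ± 0.13 in TGFβ over untreated, JUP by 1.32 ± 0.18 and 1.20 ± 0.18, CLDN1 by -1.84 ± 0.11 and -2.24 ± 0.11, and PKP2 by -1.26 ± 0.08 and -1.51 ± 0.08. CLDN3, KRT15 and KRT84 were called only for TGFβ over untreated, and CLDN6 and KRT18 only for combined over alisertib, where the CLDN6 call was lost without library 7 or library 11 (adjusted p up to 0.0608). The difference between the 2 responses, tested as the interaction, was not called for these or any other member by edgeR or DESeq2, beside 0.282% of all genes called by edgeR, 0.117% higher and 0.165% lower. In edgeR without libraries 1, 6, 9 and 10 it was called for CLDN2, CLDN4, JUP, PKP3 and KRT84, beside 3.59% of all genes. At an unadjusted p under 0.05, 8 of the 45 passed the interaction test, beside 5.69% of all genes.

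**Figure D4:**
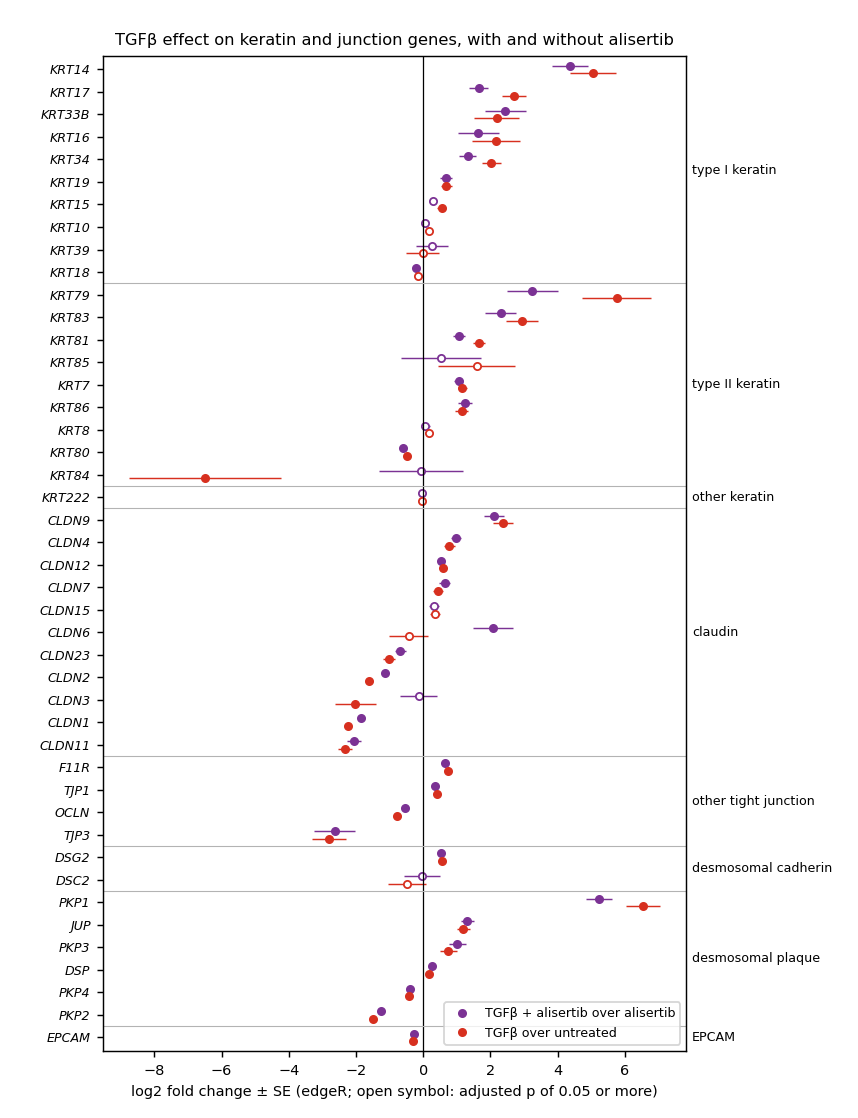
Log2 fold change ± SE for TGFβ with alisertib over alisertib (purple) and TGFβ over untreated (red) for the described genes reported here, grouped by role, with open symbols where the adjusted p was 0.05 or more. Both symbols lie on the same side of 0 for every gene drawn that was called in both comparisons, and the widest errors belong to keratins and claudins with few counts.

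Alisertib alone changed 3 of the 45, which is 6.67% beside 6.74% of all genes tested, 3.55% higher and 3.19% lower. The libraries of these groups did not overlap for 10 of the 45, beside 21.6% of all genes. CLDN2 fell by 0.57 ± 0.09 on the log2 scale in alisertib over untreated cells (adjusted p = 0.00192 by edgeR), with all 3 alisertib libraries below all 3 untreated ones. Its span overlaps that of MORC4, so some of its reads are uncertain. KRT17 rose by 1.76 ± 0.37 (adjusted p = 0.0122), with 40, 38 and 40 counts in alisertib libraries and 10, 15 and 8 in untreated ones, and the call was lost without library 3 (adjusted p = 0.0661). KRT34 rose by 1.096 ± 0.30 (adjusted p = 0.0452), although alisertib library 9 overlapped with the untreated ones, and in 11 of 18 alternative settings KRT34 was not called, among them without any 1 of libraries 1 to 5, 7, 8 and 10 to 12 (adjusted p up to 0.191). With TGFβ present, alisertib gave no called member in edgeR and 1 in DESeq2, beside 2.08% of all genes in edgeR, 1.19% higher and 0.89% lower, while 7 of the 45 had an unadjusted p under 0.05, beside 12.8% of all genes. The libraries did not overlap for 11 of the 45, beside 20.4% of all genes. CLDN2, for example, averaged 5.44 ± 0.524 CPM in combined libraries and 5.87 ± 0.59 with TGFβ, a log2 fold change of -0.11 ± 0.10, and its interaction of 0.46 ± 0.13 did not pass (adjusted p = 0.289). With the indicator term for libraries 1, 6, 9 and 10, that interaction passed (adjusted p = 0.0368). With the same term 5 members were called higher in combined over TGFβ cells, among them DSP, CLDN4, CLDN12 and CLDN7, and KRT8 was called lower, beside 8.85% of all genes called in that fit. Combined over untreated cells gave 22 members called higher and 12 lower, beside 39.7% of all genes, 19.4% higher and 20.3% lower.

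The library of each group that stood apart deviated with the base composition of the members. Over the 32 members at 1 CPM or more in a group, the mean log2 deviation of libraries 1, 6, 9 and 10 from their group means and the GC content of the gene's transcripts had a Pearson r of -0.73 and a Spearman rho of -0.68, a description over genes that share the same 4 libraries. PKP3, with 68.5% GC, lay 0.39 below its group means on the log2 scale (a deviation of -0.387), KRT19 with 59.9% GC at -0.301, JUP with 62.3% at -0.298 and CLDN4 with 56.1% at -0.256. DSG2, with 41.2% GC, deviated by 0.053, and EPCAM, with 47.1%, by 0.089. CLDN23 went the other way, at 60.7% GC and 0.127. With an indicator term for these libraries, or without them, no member lost its call of TGFβ over untreated. DSC2 was not tested without them.

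**Figure D5:**
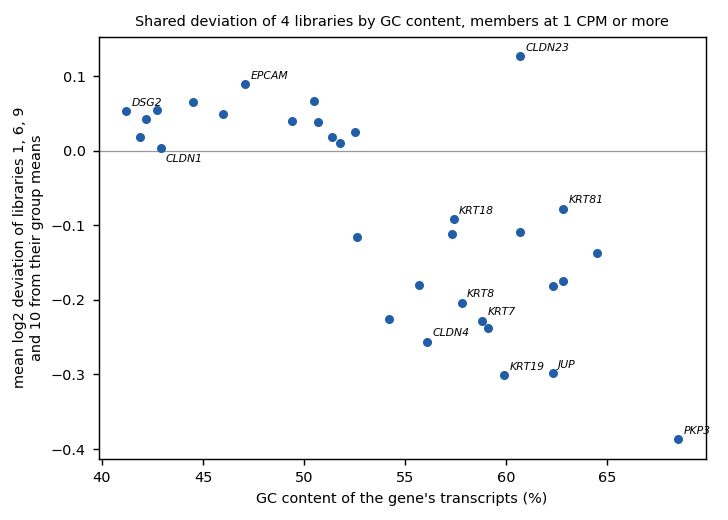
Mean log2 deviation of libraries 1, 6, 9 and 10 from their group means (vertical axis) against the GC content of the gene's transcripts in percent (horizontal axis), 1 point per member at 1 CPM or more. Members with more GC lie lower, down to PKP3 at 68.5% and -0.387, with CLDN23 above 0 at 60.7%.

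Genes around the described families also moved both ways with TGFβ. Of 23 tested genes of other junction components, 6 rose and 7 fell, beside 38.6% of all genes called. CDH1, E-cadherin, averaged 2.17 ± 0.117 CPM in combined libraries, 1.81 ± 0.227 with TGFβ, 4.80 ± 0.274 with alisertib and 5.55 ± 0.374 without treatment, and fell by 1.62 ± 0.11 on the log2 scale with TGFβ (adjusted p = 2.3e-08). PPL, periplakin, which binds keratin filaments, fell by 2.25 ± 0.13, while EVPL, envoplakin, its partner in skin, rose by 0.89 ± 0.20. Of 13 tested regulators of the epithelial state, 4 rose and 6 fell. Among the 4 were SNAI1 and SNAI2, repressors of junction genes, which rose by 3.63 ± 0.22 and 1.013 ± 0.09. Among the 6 were ELF3 and TP63, activators of epithelial genes, which fell by 2.13 ± 0.13 and 2.89 ± 0.28. The other called regulators are not named here, so these genes do not stand for the list. Its summed level was 367 to 386.7 CPM with TGFβ and 369 to 400.6 without treatment. Of 9 hemidesmosome genes, whose products tie keratins to the basement membrane, 6 rose and LAMA3 fell. In alisertib over untreated cells, 1 of the other junction genes rose and 2 fell, 2 of the regulators rose and 1 fell, and 3 hemidesmosome genes rose and 1 fell, beside 6.74% of all genes called. Of 4 fibroblast markers, the summed level was 93.6 to 132.9 CPM in combined cells, 130.6 to 158.8 in TGFβ cells, 14.8 to 18.7 in alisertib cells and 17 to 21.3 in untreated cells, with the defining marker DCN at 8 counts or fewer in every library. COL1A1 ranged from 3.23 to 104 CPM over all libraries, PDGFRB from 9.73 to 52.8 and LUM from 0.869 to 2.14. The sum was thus mostly COL1A1 and PDGFRB. The part of these markers in the results was not tested.

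The KRT222 entry that passed the count rule is uncertain as a keratin. It averaged 72.3 ± 2.13 CPM in combined libraries, 74.4 ± 1.98 with TGFβ, 74.2 ± 1.90 with alisertib and 77.1 ± 4.51 without treatment and was called in none of the comparisons. Its span overlaps 19712 bases of SMARCE1 and 10477 bases of the second entry named KRT222, which had under 1 count per library on average, and the newer annotation gives the name KRT222 to that second entry. It is not counted in the keratin sums.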

How the data were processed

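RNA from 12 libraries was prepared with an unstranded TruSeq RNA v2 kit, per the labels' protocols. The submitters' processing notes name bcl2fastq, TopHat, Subread, featureCounts and hg19, without versions in the text used here. The authors deposited raw read counts per gene, RPKM values, which were not used, and a gene length, used here for levels per kilobase. Counts were scaled by TMM factors and tested with edgeR 4.0.16 in R 4.3.3 (quasi-likelihood, robust, 1 fit of all 12 libraries, 8 residual degrees of freedom) after filterByExpr at a minimum count of 10, which left 20571 genes. Adjusted p-values are Benjamini-Hochberg over these genes, with calls under 0.05. CPM values and levels per length are TMM-scaled. DESeq2 1.42.0 was an alternative. The pipeline was tested on simulated data. No library pair held identical counts. Values are given in every library for members called with an absolute log2 fold change of at least 1 and a group mean of at least 1 CPM, for well-known junction and keratin genes, and for members called in a comparison that tests alisertib. The members and lists were chosen with earlier results of these data known. Count intervals are exact 95% intervals and cover counting error only. Values of 1 described gene are not reported here, though it is included in the counts.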

Additional observations from a re-analysis of the deposited data

Results flagged for a closer look

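Normalised for depth, CLDN6 was lower in every alisertib library than in every untreated one, and higher in every combined library than in every TGFβ one, but neither difference passed. Its log2 fold change was -1.34 ± 0.64 in alisertib over untreated cells (adjusted p = 0.27 by edgeR) and 1.18 ± 0.53 in combined over TGFβ cells (adjusted p = 0.368 by edgeR). The difference between them, tested as the interaction, was 2.52 ± 0.83 and did not pass (adjusted p = 0.443 by edgeR). CLDN6 had 9, 15 and 13 counts in combined libraries, 8, 3 and 5 with TGFβ, 1, 4 and 3 with alisertib, and 4, 10 and 6 without treatment, and its span overlaps 1627 bases of TNFRSF12A.

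The keratins KRT1, KRT3, KRT6A, KRT9, KRT36 and KRT75, outside the count rule, had a treated library above every untreated one. Treated libraries outnumbered untreated ones, so the highest count would fall in a treated library more often than not without any effect. CLDN16, also outside the rule, was highest in an untreated library, at 11 counts. The highest count in a treated library was 305 for KRT3 and 128 for KRT1, each in 1 library, with no count in any other library, treated or untreated. KRT36 reached 16 and KRT9 reached 13, each against at most 2 in untreated libraries. KRT6A reached 322 against 250 in the highest untreated library, and KRT75 reached 65 against 48.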

How the results depend on the processing

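The counts of members changed by TGFβ kept within 1.5 times under every alternative run. Without 1 library at a time, members called higher and lower numbered 20 to 23 and 11 to 14 for TGFβ over untreated, 21 to 25 and 11 to 12 for combined over alisertib, and 22 to 24 and 11 to 12 for combined over untreated. Counts for alisertib were small and moved. In alisertib over untreated, the 2 higher became 5 with DESeq2, 1 with only the groups compared, 5 with an indicator for libraries 1, 6, 9 and 10, 7 without those libraries, and 0 to 5 without 1 library at a time. The 1 lower became 2 with DESeq2, 5 with the indicator, 5 without those libraries, and 1 to 2 without 1 library. In combined over TGFβ, the 0 higher became 1 with DESeq2, 5 with the indicator, 5 without those libraries and 0 to 2 without 1 library, and the 0 lower became 1 with only the groups compared, 1 with the indicator and 1 without those libraries. For the interaction, the 0 higher became 1 with the indicator and 5 without those libraries, and only the groups compared was not run. Calls over all genes moved as well. With the indicator and without those libraries they were 19.7% and 24.5% for alisertib over untreated, 8.85% and 6.92% for combined over TGFβ, and 1.86% and 3.59% for the interaction. With DESeq2 they were 8.51%, 3.43% and 0.88% for these comparisons. Scaled by raw totals, the desmosome sum was 113.8 RPKM in combined libraries, 112.7 with TGFβ, 95.24 with alisertib and 96.08 without treatment. No value that passed the test reversed. The cause of these shifts was not tested. No paired analysis was possible because the library numbers 1 to 12 are not shared between groups. Members with few counts, such as DSC2, CLDN6 and KRT84, are limited by depth.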
